A study of Mus musculus with 18 samples.

Results

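Transcripts of 10 genes of oxidative stress defence and metal binding were followed in mouse pancreas: Nqo1, Hmox1, Gclc, Gclm, Txnrd1, Srxn1, Mt1, Mt2, Gpx1 and Prdx1. They were found in the files by gene symbol, from a list drawn up with earlier results of these data known, and all 10 were among the 25651 genes of the deposited table of unique molecular identifier (UMI) counts. The tissue was snap-frozen pancreas from 18 mice aged 20 weeks, all on the same mixed background of the 129Sv and C57BL/6 strains. Of these, 6 were wild type (WT), 7 carried the KPC genotype and 5 were labelled KPC ASC KO; by their name the last carry the KPC genotype together with loss of ASC. The letters KPC usually stand for a genetic model of pancreatic cancer. The labels spell out neither the alleles, the Cre line that drives them, nor the cells from which ASC was deleted. ASC, encoded by Pycard, is the adaptor through which inflammasome sensors recruit caspase 1. Each library is 1 mouse, and the labels give no litter, sex or histology.

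Cells meet oxidants and reactive electrophiles with a shared set of inducible genes. The transcription factor NRF2 is held down by KEAP1 in resting cells and, once released, binds antioxidant response elements near genes for glutathione synthesis, thioredoxin recycling and quinone reduction. Metallothioneins are small cysteine-rich proteins that bind zinc and copper. Their genes are switched on by the zinc sensor MTF1 through metal response elements, and also by glucocorticoids and inflammation, and the zinc-rich acinar cells of the pancreas are known to make them in quantity.

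Mt1 and Mt2 lie next to each other on chromosome 8, Mt2 at 94172664-94173568 and Mt1 at 94179082-94180327, both on the plus strand of GRCm38. The 250 bases before each RefSeq start site (GRCm38.p6) are printed because these were the 2 of the 7 tested members with the largest differences between groups. Capitals mark metal response element letters, searched on both strands as TGCACNC or TGCGCNC.
Mt2 chr8:94172368-94172617 (+): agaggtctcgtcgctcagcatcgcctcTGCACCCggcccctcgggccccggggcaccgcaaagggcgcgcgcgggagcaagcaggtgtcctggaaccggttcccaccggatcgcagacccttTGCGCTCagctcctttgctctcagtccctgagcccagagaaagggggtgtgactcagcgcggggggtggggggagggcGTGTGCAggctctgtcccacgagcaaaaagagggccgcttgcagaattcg
Mt1 chr8:94178839-94179088 (+): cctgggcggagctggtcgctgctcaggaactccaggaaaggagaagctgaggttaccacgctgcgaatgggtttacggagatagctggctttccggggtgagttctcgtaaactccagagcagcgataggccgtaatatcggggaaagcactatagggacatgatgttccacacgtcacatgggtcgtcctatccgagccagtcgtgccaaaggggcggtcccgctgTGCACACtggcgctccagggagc
Mt2 held 3 such matches in the printed stretch and Mt1 held 1. Counting the 50 bases after the start as well, Mt2 had 4 matches and Mt1 had 3, whereas 25.7% of 32851 RefSeq windows of 300 bases had at least 1 and 0.517% had 4 or more. GENCODE M21 gives Mt1 3 different start sites between 94179082 and 94179241. For Mt2 it gives 2, at 94172664 and 94172860, so other windows, with other counts of matches, could be drawn for both genes.

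Antioxidant response element letters, searched on both strands as TGACNNNGC, were found for 5 of the 8 members with RefSeq windows, which had 10 windows in all. Of all RefSeq windows 12.4% held a match. That share is per window and not per gene, and no excess over it was tested. The 4 member matches that lay before the start are shown in capitals within their flanks, on the strand of the gene. They mark which members carry these letters close to the start.
Gclm chr3:122245417-122245437 (+): ccgggcGCACCGTCAactctc
Prdx1 chr4:116685460-116685480 (+): gaaagcGCTGAGTCAtccccc
Mt2 chr8:94172533-94172553 (+): ggggtgTGACTCAGCgcgggg
Txnrd1 chr10:82859108-82859128 (+): atttttGCTTTGTCAttctga
The Srxn1 match lay after its start. Txnrd1 has 3 RefSeq windows, and 1 of them held the match. Gclm also had 3 metal response matches, 1 of which overlapped its antioxidant match, and Srxn1 had 1. Neither motif was found in the windows of Nqo1 or Gpx1, and RefSeq windows were matched for 8 of the 10 genes. A match describes letters in a window and was not measured as a binding site.

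Library totals ran from 294077 to 1626977 counts, with KPC libraries at 452472 to 1626977, WT at 294077 to 416879 and KPC ASC KO at 374432 to 647947. Pycard served as the check of the labels: its counts-per-million (CPM) level was 70.0 ± 24.2 (SD, n = 7) for KPC and 19.9 ± 11.7 (SD, n = 5) for KPC ASC KO. The log2 difference was -1.94 (adjusted p = 0.0043, edgeR) with no overlap, as for 1.05% of the tested genes. Against WT, at 58.6 ± 6.95 CPM (SD, n = 6), Pycard in KPC ASC KO differed by -1.67 and was not called (adjusted p = 0.14, edgeR). The defining markers of pancreatic acinar cells took 43.2 to 53.1% of all counts in WT, with 4.01 to 36.2% in KPC and 29.3 to 50.5% in the KPC ASC KO mice, and none of the 28 was at 0 in any group. KPC mice 40, 89, 145 and 154 stood apart with B cell marker sums of 890.7 to 2177 CPM, against 106.1 to 183.1 CPM in the other 3 KPC mice, so the calls below are also given without them. In whole tissue, fewer cells of a type and less RNA per cell cannot be told apart.

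Levels are TMM-normalised CPM, which are taken over the counts of the tested genes and scaled by the trimmed mean of M values. Of the 10 members, 7 had enough counts to be tested and Nqo1, Hmox1 and Srxn1 did not. Calls were made at an adjusted p under 0.05 in edgeR's quasi-likelihood test over all 6920 tested genes. Of the 7 tested members, Mt1 alone was called between KPC and WT, where 29.9% of all tested genes were called. Again Mt1 alone was called between KPC ASC KO and KPC, where 9.42% of all tested genes were. No member and none of the 6920 genes was called between KPC ASC KO and WT (background 0%), where 691 genes had an unadjusted p under 0.05 and DESeq2 called 8 genes. The share of members called was therefore not above that of all genes in KPC against WT. The median log2 difference of the 7 was -0.08, 0.04 and 0.16 in these 3 comparisons, against 0.06, -0.05 and 0 for all tested genes.

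**Figure D1:**
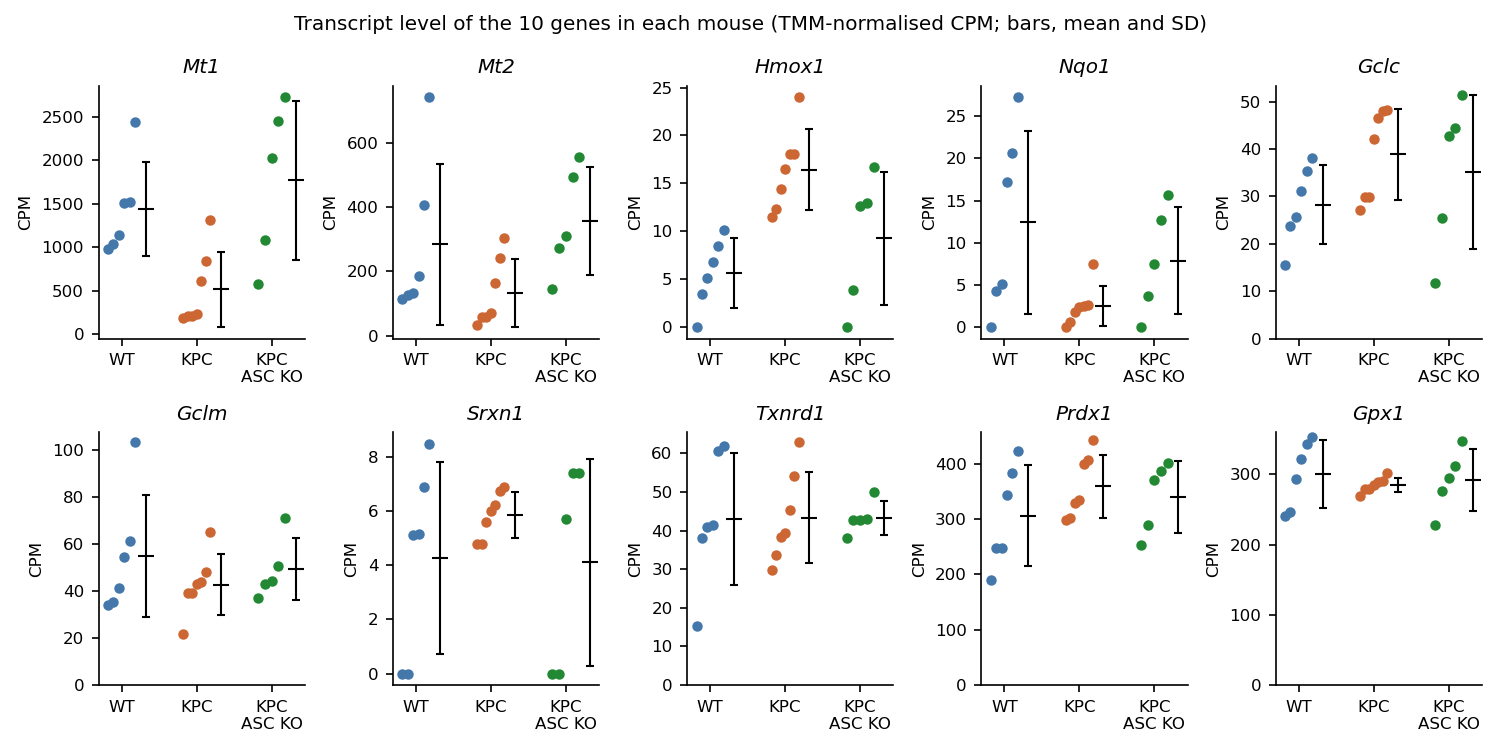
Level of each of the 10 genes, in TMM-normalised CPM on the vertical axis (linear), with 1 point per mouse in WT (n = 6), KPC (n = 7) and KPC ASC KO (n = 5); the horizontal bar is the mean and the whiskers 1 SD. Mt1 lay between 184 and 237 CPM in 4 KPC mice, and Gpx1 lay between 228 and 353.5 CPM in every mouse.

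Among the 7 tested members Mt1 was the one called in the main analysis, lower in KPC than in WT and higher in KPC ASC KO than in KPC. In the fit without the filter on low counts, which held all 10 members, Hmox1 and Nqo1 were called in KPC against WT and Mt1 was not. Mt1, which binds zinc and copper, ranged in WT mice from 984 to 2436 CPM with a median of 1326. In KPC mice it ranged from 184 to 1315 CPM with a median of 236.7. KPC ASC KO mice 318, 335, 377, 384 and 388 had levels of 2450, 2719, 1085, 573 and 2027 CPM. Of the 7 KPC mice, 6 lay below every WT mouse, and KPC mouse 48, at 1315 CPM, lay within the WT range. Of the 5 KPC ASC KO mice, 3 lay above every KPC mouse, while mice 377 and 384 lay inside the KPC range.

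Mt1 fell in KPC against WT by 1.49 on the log2 scale (SE 0.49, a ratio of 0.357, adjusted p = 0.0318, edgeR) and rose in KPC ASC KO against KPC by 1.78 (SE 0.51, 3.45-fold, adjusted p = 0.0397, edgeR). Between KPC ASC KO and WT the log2 difference was 0.30 with a 95% interval of -0.74 to 1.34. Both calls were lost without KPC mice 40, 89, 145 and 154 (log2 differences -0.88, adjusted p = 0.345, and 1.18, adjusted p = 0.41, edgeR). The first was also lost without any 1 of WT mouse 1213 or KPC mice 43, 89, 145 or 154 (adjusted p from 0.0573 to 0.0718, edgeR), and the second without any 1 of KPC mice 40, 43, 89, 145 or 154 or KPC ASC KO mice 318, 335 or 388 (0.0547 to 0.115). Without the filter on low counts (adjusted p = 0.108 and 0.103, edgeR) or with counts thinned to the smallest library (0.0523 and 0.0604) neither was called, nor was the first with total counts as the only scaling (log2 difference -0.50, adjusted p = 0.125) or the second with only the 2 groups fitted (adjusted p = 0.0761). With the acinar marker level as a covariate the log2 difference was 0.13 (adjusted p = 0.925, edgeR) in the first comparison and 0.24 (adjusted p = 0.998, edgeR) in the second. In that fit none of the 6920 tested genes was called in either comparison, so the loss of these calls is not particular to Mt1.

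Mt2, the neighbouring metallothionein, ranged from 113 to 743 CPM in WT with a median of 158.8 and from 31.4 to 304.8 in KPC with a median of 71.3. Levels were 310.6, 558.7, 272.8, 144.7 and 494 CPM in the same 5 KPC ASC KO mice, taken in that order. The groups overlapped in every comparison, with 4 of 7 KPC mice below all WT mice and 3 of 5 KPC ASC KO mice above all KPC mice. Its log2 differences had the same signs as those of Mt1 and did not pass the test: -1.14 in KPC against WT (SE 0.60, adjusted p = 0.163, edgeR) and 1.46 in KPC ASC KO against KPC (SE 0.61, adjusted p = 0.142, edgeR). Limma-voom did call Mt2 in the second comparison (adjusted p = 0.0187). Without a stated strand rule, reads from Mt2 cannot be told from those of Gm45774, an antisense gene that overlaps it.

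**Figure D2:**
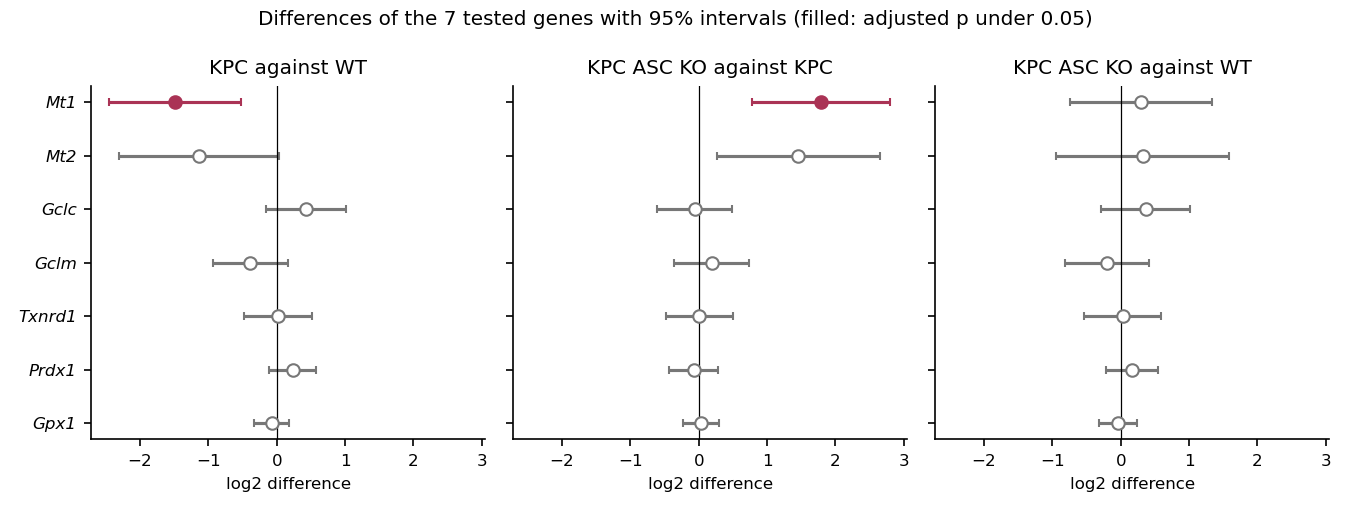
Log2 difference (horizontal axis) of the 7 tested genes in each of the 3 comparisons, from edgeR with all 18 mice, with 95% intervals as bars and filled points where the adjusted p is under 0.05. Only the Mt1 points of the first and second panels are filled, at -1.49 and 1.78.

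Within KPC and KPC ASC KO, Mt1 was lowest in the mice with the smallest acinar share of counts, and that share differed between the groups. Among KPC mice, mouse 43 with 4.01% acinar counts, mouse 89 with 6.63%, mouse 154 with 6.80% and mouse 145 with 8.10% had Mt1 at 184 to 237 CPM. The other 3 KPC mice, with 22.4, 24.4 and 36.2% acinar counts, had 607, 845 and 1315 CPM. The KPC ASC KO mice with the lowest acinar shares, 384 at 29.3% and 377 at 34.6%, were also those with the lowest Mt1. Of the 28 acinar markers, 26 fell in KPC against WT (list median -2.57 on the log2 scale) and 25 rose in KPC ASC KO against KPC (2.38). Of all tested genes 15.1% fell in the first comparison and 6.73% rose in the second. With the acinar marker level as a covariate the Mt2 difference of KPC from WT was 0.41 (adjusted p = 0.84, edgeR), where it was -1.14 without. The acinar shares of WT (43.2 to 53.1%) and KPC (4.01 to 36.2%) did not overlap. Genotype and acinar share therefore cannot be told apart in that fit, and the part of acinar content was not tested.

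**Figure D3:**
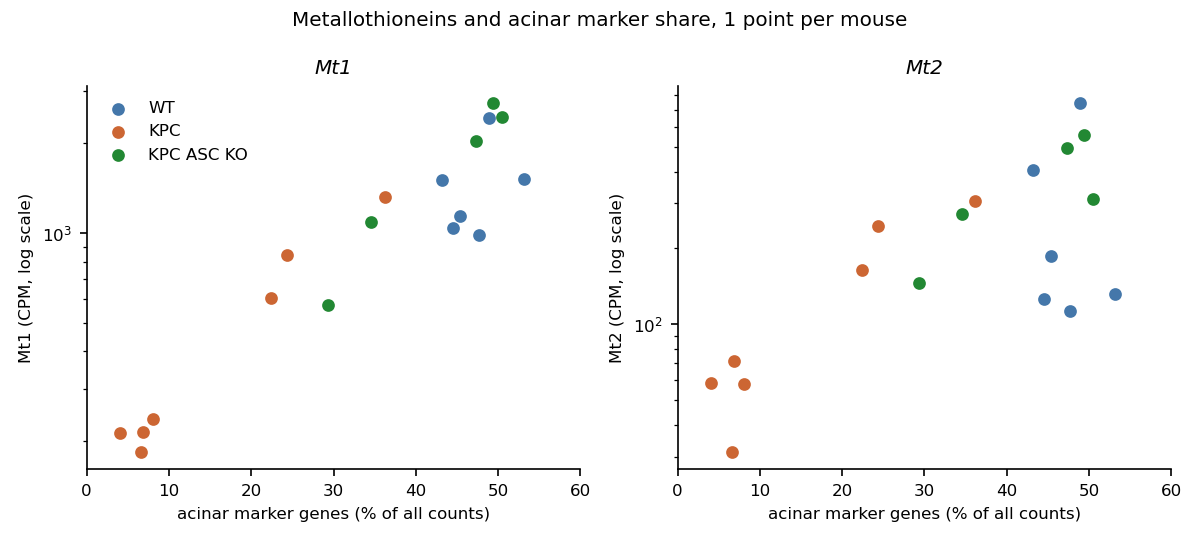
Level of Mt1 (left) and Mt2 (right) in CPM on a log axis against the share of all counts taken by 28 acinar marker genes (percent), 1 point per mouse. The 4 KPC mice below 10% acinar counts have the lowest Mt1 and Mt2 levels of all 18, and the WT mice sit at 43.2 to 53.1%.

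Set against acinar transcripts instead of against all tested genes, Mt1 was higher in KPC than in both other groups. Mt1 stood at 1.37 to 3.02 counts per 1000 acinar marker counts in WT (2.0 ± 0.69, SD, n = 6) and at 3.34 to 10.5 in KPC (5.38 ± 2.42, SD, n = 7). KPC ASC KO mice 318, 335, 377, 384 and 388 had ratios of 2.63, 3.32, 3.07, 2.18 and 2.71. All 7 KPC mice exceeded all WT mice and all KPC ASC KO mice. How many of all tested genes separate in this way per acinar count was not computed. By an exact two-sided permutation test on log2 ratios, KPC was higher than WT by 1.40 (p = 0.00117, adjusted p = 0.0105 over 9 tests), and KPC ASC KO was lower than KPC by 0.867 (difference -0.867, p = 0.00253, adjusted p = 0.0114). The difference of KPC ASC KO from WT was 0.529 (exact permutation p = 0.0563, adjusted p = 0.127). The first 2 p-values are the smallest that these group sizes allow, and the ratios were chosen after the values were seen. In those 2 comparisons the acinar markers had list medians of -2.57 and 2.38, beside -1.49 and 1.78 for Mt1. A gene that moved less than these markers tends to give such ratios, so the tests show nothing particular to Mt1.

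Mt1 and Mt2 were compared mouse by mouse. Over the 6 WT mice, in the 1 relation tested, their log2 levels had a Pearson r of 0.86 (exact permutation p = 0.0417) and a Spearman rho of 0.83 (exact permutation p = 0.0583), but r was 0.47 without the 2 mice farthest from the median of Mt1, so the relation rests on those mice. KPC mice fell into clusters by acinar share, and no pooled value is tested. The number of Mt1 counts per Mt2 count, which needs no scaling, was 6.95 ± 3.19 (SD, n = 6) in WT, with 4.02 ± 0.92 (SD, n = 7) for KPC and 4.96 ± 1.68 (SD, n = 5) in the KPC ASC KO mice. It ran from 3.28 to 11.6 in WT and from 3.02 to 5.88 in KPC, so these groups overlapped, and the exact permutation p on log2 ratios was 0.0548 (adjusted p = 0.127), and 0.0177 to 0.119 with 1 mouse left out.

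Hmox1, which encodes the inducible haem oxygenase that breaks haem down to biliverdin, carbon monoxide and iron, was counted too rarely for the main test. WT libraries held 0 to 2 counts of it, KPC libraries 6 to 40, and KPC ASC KO libraries 0, 1, 9, 7 and 3 in mice 318, 335, 377, 384 and 388. Scaled to library size, this was 0 to 10.1 CPM in WT (median 5.98) and 11.5 to 24.0 CPM in KPC (median 16.5). Every KPC mouse lay above every WT mouse, which was so for 3.77% of the tested genes. For KPC ASC KO the scaled levels were 0, 3.91, 16.7, 13.0 and 12.7 CPM for the same mice, which overlapped both other groups.

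In a fit without the filter on low counts, Hmox1 rose in KPC against WT by 1.66 on the log2 scale (SE 0.55, adjusted p = 0.0312, edgeR), in a setting where 10.3% of 25651 genes were called, 6.10% of all as higher and 4.23% as lower. It was no longer called once KPC mice 40, 89, 145 and 154 were left out (1.33, adjusted p = 0.335, edgeR) and without any of WT mice 1197, 1213 or 1237 or KPC mouse 154 (highest adjusted p = 0.0928, edgeR). With the acinar covariate its difference was 1.33, with a wider SE of 0.77 (adjusted p = 0.642, edgeR). With total counts as the only scaling this difference was 2.74 (adjusted p = 4.87e-05, edgeR), beside a median of all tested genes of 1.30 under that scaling. KPC ASC KO mice differed from KPC mice by -0.82 on the log2 scale (SE 0.47, adjusted p = 0.4, edgeR), where 2.97% of genes were called. With total counts as the only scaling it was -1.65 (adjusted p = 0.0134, edgeR), beside a median of all tested genes of -1.06 under that scaling.

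Macrophages are a known site of haem oxygenase expression, and macrophage markers rose in the same comparison. Of the 12 tested macrophage markers, 9 were called higher in KPC against WT, beside 14.8% of all tested genes. Their summed share of all counts was 0.0522 to 0.0888% in WT, with 0.211 to 0.576% in KPC and 0.0559 to 0.33% in the KPC ASC KO mice, and none of the 14 markers was at 0 in any group. Per 1000 macrophage marker counts, pooled over each group, Hmox1 was at 5.39 in WT (exact Poisson 95% interval 2.33 to 10.6), 6.03 in KPC (5.16 to 7.02) and 4.84 in KPC ASC KO (2.96 to 7.48), intervals that cover counting error only. Per mouse the ratio was 5.52 ± 3.53 (SD, n = 6), 5.99 ± 1.41 (SD, n = 7) and 5.41 ± 4.73 (SD, n = 5), and KPC differed from WT by 0.467 (exact permutation p = 0.755, adjusted p = 0.872). With 0 to 2 Hmox1 counts in each WT mouse, this test could hardly find a difference. Fibroblast markers rose in KPC against WT too, 7 of 8 tested. The part of macrophage or fibroblast content in the Hmox1 difference was not tested.

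**Figure D4:**
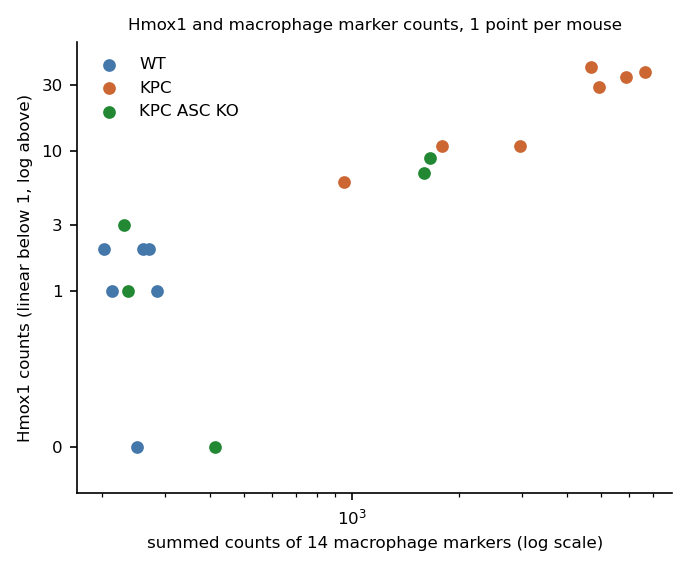
Hmox1 counts (vertical axis, linear below 1 and log above) against the summed counts of 14 macrophage markers (log axis), 1 point per mouse. WT mice hold 0 to 2 Hmox1 counts and KPC mice 6 to 40. KPC ASC KO mice 377 and 384, with 9 and 7 counts, have macrophage sums above those of every WT mouse, as does KPC ASC KO mouse 318 with 0 Hmox1 counts. Neither axis is scaled for library depth. As a share of all counts the macrophage markers were 0.301, 0.33 and 0.0639% in mice 377, 384 and 318, against 0.0522 to 0.0888% in WT.

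Nqo1, a quinone reductase and a common reporter of NRF2 activity, was sparser still. WT mice held 8, 5, 1, 4, 1 and 0 counts (mice 69, 1197, 1202, 1213, 1237 and 1238), and the 7 KPC mice held 0 to 5 counts despite deeper libraries. KPC ASC KO mice 318, 335, 377, 384 and 388 held 0, 4, 2, 4 and 3 counts. Scaled levels were 12.4 ± 10.8 CPM (SD, n = 6) in WT, with 2.50 ± 2.43 (SD, n = 7) for KPC and 7.89 ± 6.38 (SD, n = 5) in the KPC ASC KO mice, and the groups overlapped, each with 1 mouse at 0. In the fit without the filter Nqo1 fell in KPC against WT by 2.36 on the log2 scale (SE 0.63, adjusted p = 0.00497, edgeR). Nqo1 was no longer called with WT mouse 69 left out (adjusted p = 0.0884, edgeR). The call was also lost without KPC mice 40, 89, 145 and 154 (adjusted p = 0.0856, edgeR). With the acinar covariate it was lost too, with a wider SE (-1.42, SE 1.05, adjusted p = 0.784, edgeR). Total counts as the only scaling gave no call either (-1.27, adjusted p = 0.126, edgeR). For KPC ASC KO against KPC the log2 difference was 1.55 (SE 0.69, adjusted p = 0.241, edgeR).

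Glutathione is made in 2 steps, and the first is catalysed by glutamate-cysteine ligase, whose catalytic subunit is Gclc and whose modifier subunit is Gclm. Gclc ranged from 15.5 to 38.2 CPM in WT (median 28.3) and from 27.1 to 48.3 CPM in KPC (median 42.0), and was 51.3, 11.7, 44.5, 42.7 and 25.3 CPM in KPC ASC KO mice 318, 335, 377, 384 and 388. The 4 highest KPC mice exceeded all WT mice, while KPC ASC KO mouse 335 was the lowest of all 18. The log2 difference of KPC from WT was 0.43, with a 95% interval of -0.15 to 1.01 (adjusted p = 0.282, edgeR). Gclm ranged from 33.9 to 103.5 CPM in WT (median 47.9), from 21.6 to 65.0 in KPC (median 43.0) and from 37.1 to 71.2 in KPC ASC KO. Its log2 difference of KPC from WT had the opposite sign, -0.39 (95% interval -0.93 to 0.16, adjusted p = 0.301, edgeR), and all groups overlapped for both subunits. Gclm counts could include reads from Gm6061 and Gm17494, which overlap it.

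Among the members of the thioredoxin system, Txnrd1 was not called in the main analysis and Srxn1 had too few counts to be tested. Txnrd1, the cytosolic thioredoxin reductase, averaged 43.1 ± 17.1 CPM (SD, n = 6) in WT, with 43.4 ± 11.8 (SD, n = 7) for KPC and 43.3 ± 4.3 (SD, n = 5) in the KPC ASC KO mice. Its log2 difference of KPC from WT was 0.02 with a 95% interval of -0.48 to 0.51. That of KPC ASC KO from KPC was 0.01 with an interval of -0.48 to 0.50. Under total counts as the only scaling these were 1.28 and -0.985 (adjusted p = 0.00142 and 0.0137, edgeR). The medians of all genes were then 1.30 and -1.06. The genes Gm38560, Gm47073 and Eid3 overlap Txnrd1, Eid3 on the same strand. Srxn1, which repairs overoxidised peroxiredoxins, had 0 to 2 counts in WT, 2 to 20 in KPC and 0 to 4 in KPC ASC KO, and its no-filter difference of KPC from WT was 0.61 (adjusted p = 0.688, edgeR).

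Neither peroxide-removing enzyme among the members was called in any comparison of the main analysis. Prdx1, a cytosolic peroxiredoxin, ranged from 190.8 to 424 CPM in WT (median 296), from 299 to 444 in KPC (median 334.8) and from 253 to 402 in KPC ASC KO, and these ranges overlapped. Its log2 difference of KPC from WT was 0.23 (95% interval -0.11 to 0.58, adjusted p = 0.329, edgeR). Gpx1, the widespread cytosolic glutathione peroxidase, averaged 300.2 ± 48.3 CPM (SD, n = 6) in WT, with 285 ± 10.3 (SD, n = 7) for KPC and 292 ± 44.2 (SD, n = 5) in the KPC ASC KO mice. The spread of Gpx1 between mice, as SD over mean, was 16.1% in WT, with 3.61% in KPC and 15.1% in the KPC ASC KO mice. The KPC libraries held 121 to 932 Gpx1 counts each and the WT libraries 48 to 101. Its log2 differences were -0.08 (95% interval -0.33 to 0.18) in KPC against WT and 0.04 (-0.23 to 0.30) in KPC ASC KO against KPC. These are levels relative to the other tested genes: under total counts as the only scaling, the Gpx1 difference of KPC from WT was 1.16 while the median of all genes was 1.30.

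By correlation of log2 CPM over all 18 mice, among 1937 or 1938 genes of at least 50 CPM, the closest genes to Mt1 were P4hb (Pearson r = 0.960), which encodes protein disulphide isomerase, and Aldh1l2 (0.959), a mitochondrial folate enzyme. Mt2 was closest to Mt1 (0.901) and Tob1 (0.895). The nearest to Prdx1 were the epithelial gene Epcam (0.859) and Anxa2 (0.810), and to Gclc they were Gas6 (0.787) and Tspo (0.767). Txnrd1 was nearest to Nsd1 (0.774) and App (0.766), Gpx1 to the proteasome genes Psmc3 (0.743) and Psmd8 (0.620), and Gclm to Naa60 (0.693) and Mbnl2 (0.655). All these points share their libraries, depth and acinar share, so the values describe likeness only.

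Around the members, 107 further genes of redox and metal handling were listed in 8 lists, of which 75 were tested; 1 of the 21 zinc and copper genes was not matched by its name. Between KPC and WT, 5 of the 75 rose and 18 fell (30.7%, beside 29.9% of all tested genes, 14.8% higher and 15.1% lower), and between KPC ASC KO and KPC 8 rose and none fell (10.7%, beside 9.42% called and 6.73% called higher). None was called between KPC ASC KO and WT. Under total counts as the only scaling, 49 of the 75 were called higher and 7 lower in the first comparison, and 4 higher and 47 lower in the second. Under that scaling Sod2, Slc3a2, Gstz1, Slc30a5, Mgst3, Ftl1 and Cbr1 changed sign among the 23 of the first comparison, and Gstz1 and Gstt2 among the 8 of the second, although all kept their side of the all-gene median. Without KPC mice 40, 89, 145 and 154, 7 of the 75 were called higher and 5 lower in KPC against WT, and none in KPC ASC KO against KPC. These 12 were 8 of the 23 (Mgst1, Gpx3, Sod3, Glrx2, Prdx4, Gstt2, Gstm2 and Gstm1) and Nfe2l2, Gsto1, Gsta3 and Txnip, which were higher. With the acinar marker level as a covariate, edgeR called none of the 6920 genes in either of the 2 comparisons, where 887 and 302 genes, 12 and 8 of the 75 among them, had an unadjusted p under 0.05.

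Glutathione peroxidases and transferases, which spend glutathione on peroxides and electrophiles, held 11 of these 23 calls and 6 of the 8. In KPC against WT, 9 of 19 tested fell and Gpx3 and Mgst1 rose, beside 15.1% of all tested genes called lower and 14.8% higher. The list median was -0.96 beside 0.06 for all genes. Without KPC mice 40, 89, 145 and 154 the list had 4 higher, 3 lower and a median of -0.34, and under total counts as the only scaling 8 higher, 4 lower and a median of 0.23. Gstm2 went from 167.8 ± 22.8 CPM (SD, n = 6) in WT to 52.2 ± 25.5 (SD, n = 7) in KPC, with no overlap between the mice, as for 5.09% of tested genes with all KPC mice lower (log2 difference -1.75, SE 0.24, adjusted p = 4.78e-05, edgeR). It was 117 ± 25.8 CPM (SD, n = 5) in KPC ASC KO, a rise over KPC of 1.22 (adjusted p = 0.00632, edgeR). In KPC ASC KO against KPC 6 of the 19 rose, Gstp1 (1.52), Gstp2 (1.55) and Gstk1 (1.21) among them, beside 6.73% of all tested genes. Gstp1 and Gstp2, and the Gstm genes, are close copies of each other, so the split of reads within each family is uncertain.

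Of glutathione synthesis and recycling genes, 3 of 8 tested fell in KPC against WT, beside 15.1% of all tested genes. These were Ggt1 (log2 difference -2.56), which cleaves glutathione outside the cell, Glrx2 (-1.74), a mitochondrial glutaredoxin, and Slc3a2 (-1.05), a subunit of the cystine transporter. Prdx4, the peroxiredoxin of the endoplasmic reticulum, fell from 276 ± 29.6 CPM (SD, n = 6) in WT to 81.2 ± 56.0 (SD, n = 7) in KPC and was 214.8 ± 76.2 (SD, n = 5) in KPC ASC KO. Its log2 differences were -1.83 (adjusted p = 0.000754, edgeR) in KPC against WT and 1.45 (adjusted p = 0.0155, edgeR) in KPC ASC KO against KPC. Of the 10 tested thioredoxin and peroxiredoxin genes it was the only 1 called in either comparison.

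Slc39a5, a zinc importer, had the largest difference of the zinc and copper list. It averaged 268.5 ± 44.9 CPM (SD, n = 6) in WT, with 34.5 ± 39.7 (SD, n = 7) for KPC and 202.5 ± 101 (SD, n = 5) in the KPC ASC KO mice. It fell in KPC against WT by 3.21 on the log2 scale (SE 0.64, adjusted p = 0.0021, edgeR) and rose in KPC ASC KO against KPC by 2.77 (SE 0.66, adjusted p = 0.0186, edgeR). Of the 10 tested genes of that list, Slc30a5, a zinc transporter of the secretory pathway (-0.95), also fell and Atox1, a copper chaperone (0.57), rose in KPC against WT. Neither call of Slc39a5 held without KPC mice 40, 89, 145 and 154 (log2 differences -2.48, adjusted p = 0.0783, and 2.04, adjusted p = 0.332, edgeR). Acinar markers fell and rose in the same 2 comparisons, as given for Mt1.

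Mitochondrial Sod2 fell in KPC against WT (log2 difference -0.96, adjusted p = 0.00193, edgeR), from 84.1 ± 19.6 CPM (SD, n = 6) to 43.4 ± 7.75 (SD, n = 7). Secreted Sod3 rose (1.33, adjusted p = 0.0072, edgeR), from 22.0 ± 11.8 to 58.6 ± 13.3 CPM over the same mice. Neither gene's groups overlapped. All KPC mice were lower in Sod2, as for 5.09% of tested genes, and higher in Sod3, as for 3.77%. Fibroblast markers rose in the same comparison, 7 of 8 tested beside 14.8% of all tested genes, and their part in the Sod3 difference was not tested. Among haem and iron genes 2 of 6 were called, beside 29.9% of all tested genes. Blvra, which turns biliverdin to bilirubin downstream of Hmox1, rose (1.22, adjusted p = 0.0273, edgeR). The ferritin light chain gene Ftl1 fell (-0.44, adjusted p = 0.0162, edgeR). Of 10 NADPH supply and reductase genes, Cbr1, a carbonyl reductase, fell (-0.95, adjusted p = 0.0142, edgeR) and the others were not called in either comparison.

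None of the 7 tested NRF2 regulators was called in any of the 3 comparisons with all 18 mice and TMM scaling. Nfe2l2, which encodes NRF2, averaged 86.5 ± 24.3 CPM (SD, n = 6) in WT, with 122 ± 46.2 (SD, n = 7) for KPC and 94.8 ± 32.4 (SD, n = 5) in the KPC ASC KO mice, with a KPC against WT log2 difference of 0.49 (95% interval 0 to 0.98, adjusted p = 0.138, edgeR). Without KPC mice 40, 89, 145 and 154 that difference was 0.93 and was called (adjusted p = 0.0209, edgeR). Under total counts as the only scaling all 7 regulators were called higher in KPC against WT and all 7 lower in KPC ASC KO against KPC, with list medians of 1.26 and -0.93 beside 1.30 and -1.06 for all genes. Mafg, a small MAF partner of NRF2, had the smallest p of the list, with a log2 difference of 0.81 (SE 0.32, adjusted p = 0.0568, edgeR) and 6 of 7 KPC mice above every WT mouse. Nfe2l1 differed by 0.46 (adjusted p = 0.0987, edgeR) and Sqstm1, which binds KEAP1, by -0.33 (adjusted p = 0.262, edgeR). The list ran in KPC ASC KO against KPC from -0.34 for Nfe2l2 to 0.37 for Rbx1.

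**Figure D5:**
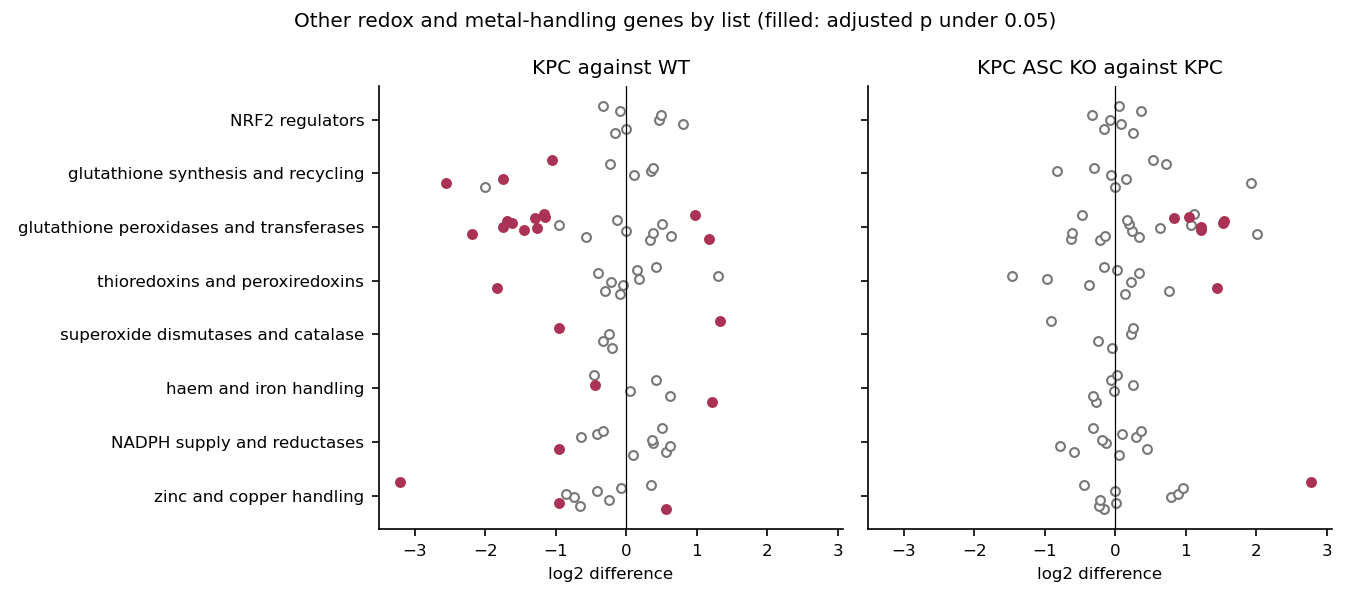
Log2 difference (horizontal axis) of each tested gene in 8 lists of redox and metal-handling genes, 1 point per gene, in KPC against WT (left) and KPC ASC KO against KPC (right), filled where the adjusted p is under 0.05. On the left 18 filled points lie below 0 and 5 above; on the right all 8 lie above 0, with Slc39a5 farthest out at -3.21 and 2.77.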

How the data were processed

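RNA from each pancreas was primed at its poly(A) tail with an oligonucleotide carrying a UMI, per the labels' protocols, so counts lie near transcript ends and copies made by PCR can be removed. The authors deposited whole-number UMI counts per gene, not normalised. The submitters' processing notes name edgeR 3.36.0, limma 3.50.0, R 4.1.2 and the builds GRCm38 and mm10. Which aligner, UMI rule and annotation were used is not given in the sources used here. Counts were analysed with edgeR 4.0.16 in R 4.3.3: genes passed filterByExpr (minimum count 10, smallest group 5), library sizes were sums over the 6920 tested genes with TMM scaling, and 1 robust quasi-likelihood model of the 3 groups took in all 18 mice, with Benjamini-Hochberg adjustment over all tested genes. Marker sums are shares of all counts, without TMM scaling. Ratios of counts within a library were compared by exact two-sided permutation tests, with adjustment over 9 tests. Intervals are the estimate and its SE on a normal scale. DESeq2 1.42.0 and limma-voom (limma 3.58.1) were alternatives, with other scalings, no filter, thinned counts, an acinar covariate and libraries left out.

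On simulated counts for 6920 genes, KPC against WT recovered 33 of 100 genes changed 2-fold and 93 of 100 changed 4-fold, KPC ASC KO against KPC 41 and 89, and KPC ASC KO against WT 22 and 83. Counts of all 46 pairs of libraries within a group differed beyond sampling noise (chi-square over its degrees of freedom at least 2.38). Nothing states separate litters, so p-values measure the spread between these mice. The members and lists were chosen with earlier results of these data known. Named beside the members are, from each of the 8 lists, genes among the 4 with the smallest p in a comparison, and the 2 closest genes to each tested member; Gpx3, Mgst1, Gstz1, Mgst3 and the other genes listed for a change of sign or a called direction were named after their values were seen. Promoter windows came from RefSeq.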

Additional observations from a re-analysis of the deposited data

Results flagged for a closer look

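Dixon's criterion was applied to 51 sets of per-mouse values. They were those of the 10 members, Pycard, the acinar and macrophage marker shares, the library totals and the ratios compared by permutation. Of these sets, 4 held 1 mouse far from the rest of its group, and chance gives about 1 in 20. WT mouse 1213 had Mt1 at 2436 CPM, and the next WT mouse was at 1520 CPM. The call of Mt1 in KPC against WT was lost without that mouse. KPC mouse 210 had Nqo1 at 7.504 CPM, from 5 counts, with the next KPC mouse at 2.657 CPM. KPC ASC KO mouse 318 had 7.89 Mt1 counts per Mt2 count, and the next mouse of its group had 4.867. KPC mouse 43, the deepest library and the one with the lowest acinar share, had 10.5 Mt1 counts per 1000 acinar marker counts, against 5.76 in the next KPC mouse.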

How the results depend on the processing

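Under RLE scaling, TMM without acinar genes, DESeq2 and limma-voom, Mt1 kept its direction in KPC against WT and in KPC ASC KO against KPC. Low counts limit Nqo1, Hmox1 and Srxn1. No paired analysis was possible because mouse numbers are not shared between groups.

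In KPC against WT, 2070 genes were called, against 5519 with total counts only, 728 without KPC mice 40, 89, 145 and 154, 0 with the acinar covariate, and 1745 to 2310 with 1 mouse left out. Members called were 1, against 5 with total counts only, 2 without the filter, 0 without those 4 mice, 0 with the acinar covariate, 0 with thinned counts and 0 to 1 with 1 mouse left out. In KPC ASC KO against KPC, 652 genes were called, against 4853 with total counts only, 265 with the 2 groups alone, 1 without those 4 mice, 0 with the covariate, 409 with thinned counts and 195 to 1066 with 1 mouse left out. Members called were 1, against 6 with total counts only, 2 with limma-voom, and 0 without the filter, with the 2 groups alone, without those 4 mice, with the covariate or with thinned counts. In KPC ASC KO against WT, 0 genes were called, against 1 with total counts only, 8 with DESeq2, 12 without the filter, 7 with the 2 groups alone, 4 without those 4 KPC mice, 4 with the covariate, 1 with thinned counts and 0 to 3 with 1 mouse left out; no member was called there. The cause of these moves was not tested.

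Total counts only moved the median log2 difference of all genes to 1.30 in KPC against WT and -1.06 in KPC ASC KO against KPC, and the share of calls that were higher from 49.4 to 96.4% and from 71.5 to 3.11%. With limma-voom that share was 31.2 and 87.3%, and without the filter 59.1 and 55.7%. Mt1 was then at -1.80 and 1.90 relative to the median of all genes under total counts.

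Among the members, signs turned as follows, and of these differences the main analysis had called that of Mt1. In KPC against WT, Gclm was 0.85 with total counts only, Gpx1 was 1.16 with total counts only, 0.072 without the filter and 0.041 with thinned counts, Txnrd1 was -0.002 with thinned counts and -0.14 to 0.14 with 1 mouse left out, and Mt1 was 0.13 and Mt2 0.41 with the acinar covariate. In KPC ASC KO against KPC, total counts only gave -0.87 for Gclm, -0.98 for Txnrd1 and -0.94 for Gpx1. No filter gave -0.085 for Txnrd1 and -0.064 for Gpx1, and leaving out the 4 KPC mice gave -0.071 for Gclm and -0.21 for Txnrd1. Thinned counts gave 0.027 for Gclc, -0.028 for Txnrd1 and -0.21 for Gpx1. With 1 mouse left out, Gclc ran from -0.20 to 0.13, Txnrd1 from -0.084 to 0.11, Gpx1 from -0.037 to 0.11 and Prdx1 from -0.14 to 0.014. In KPC ASC KO against WT, Gpx1 was 0.22 with total counts only and 0.008 without the filter, and Txnrd1 was -0.029 with thinned counts. With 1 mouse left out there, Gclm ran from -0.37 to 0.10, Txnrd1 from -0.13 to 0.15, Gpx1 from -0.11 to 0.037 and Srxn1, in the fit without the filter, from -0.046 to 0.55, with -0.046, -0.031 and -0.027 without WT mouse 69 and KPC ASC KO mice 377 and 384.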
